A study of Homo sapiens with 14 samples.

Results

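The WNT ligands, their receptors and the proteins that tune them were followed across 14 human neuroblastoma cell lines. The genes were taken from the count table by symbol: WNT, FZD, SFRP, DKK, RSPO, LGR, AXIN and LRP family names, with LEF1, TCF7, TCF7L1, TCF7L2, PORCN, RNF43 and ZNRF3. The rule found 52 genes of 20049, and no measured value entered it. Each line gave 1 library of total RNA, and the labels give no treatment, genotype or groups, so every line was compared by its own level. The lines were IMR5-75, IMR32, SH-SY5Y, SK-N-SH, SK-N-FI, NGP, SK-N-AS, LS, SK-N-DZ, NBL-S, SK-N-BE(2)C, Lan-6, GI-ME-N and CLB-GA, all grown in RPMI1640 or DMEM with serum. IMR5-75 is known as a subclone of IMR32 and SH-SY5Y as a subclone of SK-N-SH, so these pairs share their origin. With 1 library per line, no level below has a replicate error, and a difference between single lines was not tested.

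WNT proteins are secreted lipid-modified ligands. They bind Frizzled receptors together with LRP5 or LRP6, which halts the destruction of beta-catenin and lets it act with TCF and LEF factors on target genes. Some WNT ligands, WNT5A among them, are best known for signalling through Frizzled and other receptors without beta-catenin. In the embryo, WNT signals take part in the formation and migration of the neural crest, the tissue from which neuroblastoma arises.

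Library totals ran from 35856642 counts in Lan-6 to 58644013 counts in LS, and levels are given as CPM, the counts scaled to a common library size after TMM normalisation. Where a gene had 0 counts, a level of up to 3 counts remains possible, equal to 0.0514 CPM in LS and 0.102 CPM in Lan-6, for counting error only. Among markers of the sympathetic lineage, HAND2, GATA3 and ISL1 were above 10 CPM in all 14 lines, with lowest levels of 111 CPM in SK-N-SH for HAND2, 21.9 CPM in LS for GATA3 and 13.5 CPM in GI-ME-N for ISL1. PHOX2A was below 1 CPM in GI-ME-N, at 0.527 CPM, and in no other line. GI-ME-N and Lan-6 also stood apart in that long transcripts were low in them relative to the mean of the 14 lines. Each gene's log2 level, less its mean over the lines, was correlated with transcript length, for genes with a mean above 5 CPM. Spearman's correlation was -0.39 in Lan-6 and -0.29 in GI-ME-N, against -0.12 to 0.20 in the other 12 lines.

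The WNT genes were more uneven across the lines than the table as a whole. Of the 52 genes, 15 reached 1 CPM in all 14 lines (28.8%), 29 in some lines (55.8%) and 8 in none. Over all 20049 genes the shares were 52.8% in all lines and 34.5% in some. Among genes that reached 1 CPM anywhere, the median standard deviation of log2 CPM over the lines was 1.78 for the WNT genes and 0.861 for all genes. The genes found at 1 CPM in every line were PORCN, WNT2B, WNT3, FZD3, FZD5, FZD6, LRP5, LRP6, LGR4, LGR5, ZNRF3, SFRP1, DKK3, AXIN1 and TCF7L2. Those below 1 CPM in every line, with their highest level, were WNT2 (0.188 CPM), WNT7A (0.205 CPM), WNT7B (0.332 CPM), WNT8A (0.0250 CPM), WNT9B (0.619 CPM), FZD10 (0.449 CPM), LGR6 (0.496 CPM) and SFRP2 (0.137 CPM). The number of these genes at 1 CPM was lowest in SK-N-BE(2)C (23) and highest in NGP (34). Of the 44 genes that reached 1 CPM in some line, LS held the highest level of 9, SK-N-SH of 8 and Lan-6 of 6, while SK-N-BE(2)C held the highest level of 0.

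**Figure D1:**
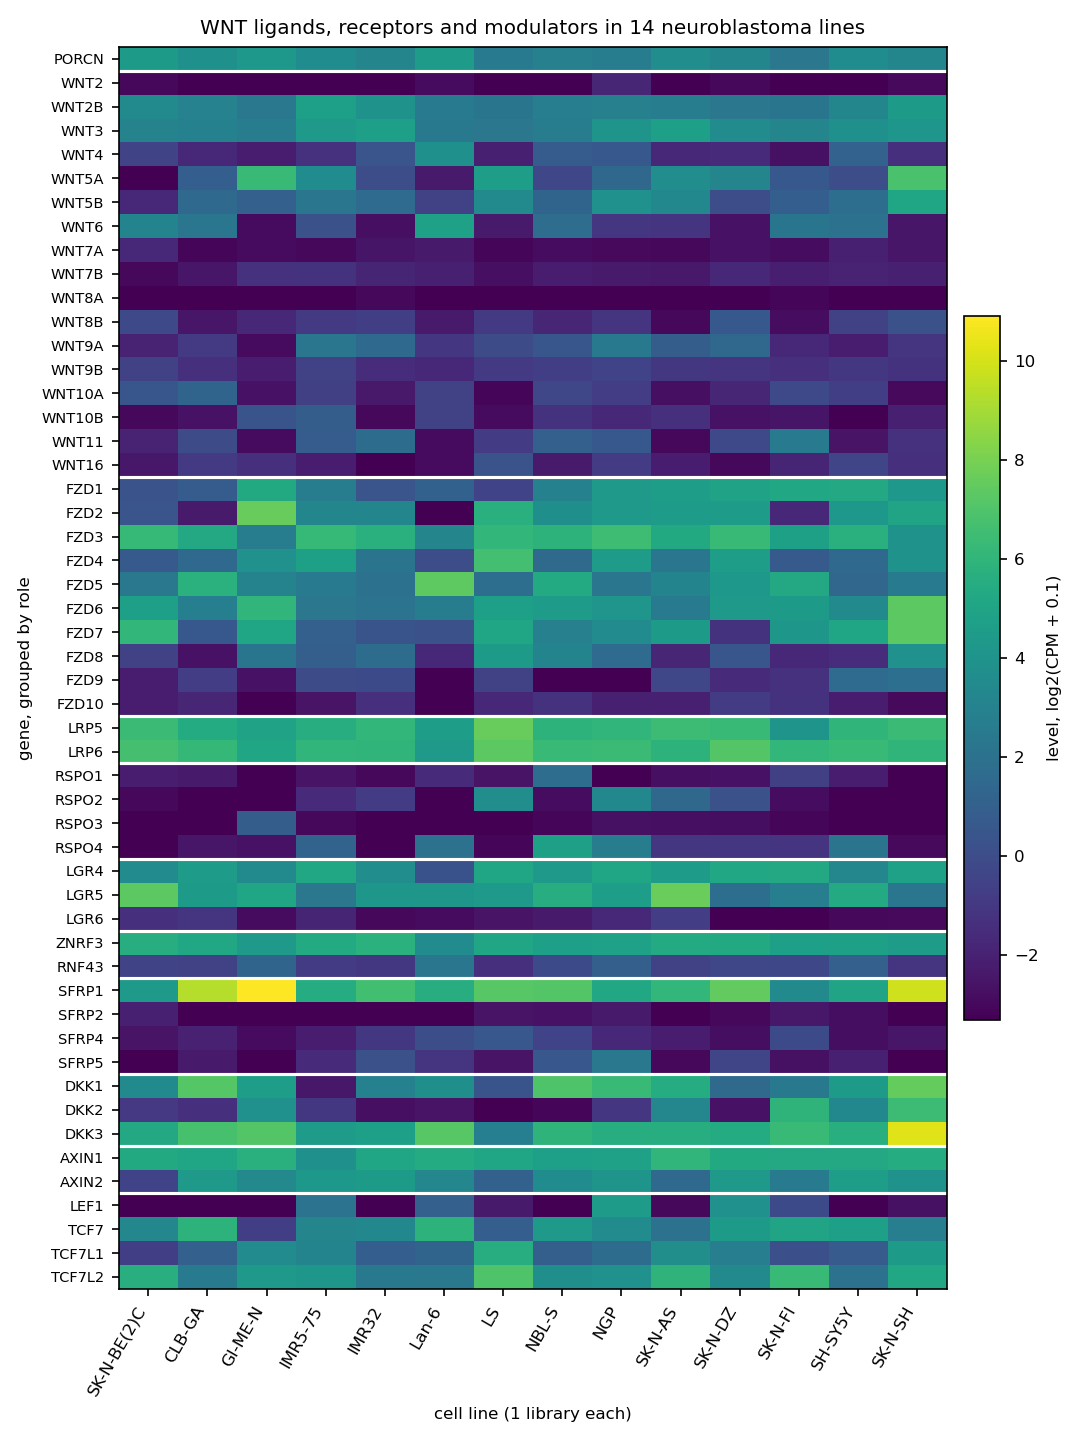
Level of each of the 52 genes (rows, grouped by role) in each of the 14 lines (columns), as log2 of CPM plus 0.1 on the colour scale. The co-receptors LRP5 and LRP6 are high in every column, while single bright cells mark genes high in 1 or a few lines, such as SFRP1 in GI-ME-N at 1921 CPM and DKK3 in SK-N-SH at 1192 CPM.

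Among the 17 ligands, WNT3 and WNT2B reached 1 CPM in every line, 10 others in some lines and 5 in none. WNT5B did so in 11 lines, WNT5A in 9 and WNT6 in 7. PORCN, the acyltransferase that lipid-modifies WNT proteins before secretion, lay between 4.80 CPM in SK-N-FI and 22.6 CPM in Lan-6. With each library's joint trend over GC content and transcript length removed, Lan-6 was at 12.1 CPM, and PORCN was highest in SK-N-BE(2)C at 24.5 CPM. WNT3 had a median of 10.1 CPM, with LS lowest at 4.88 CPM and SK-N-AS highest at 26.1 CPM. WNT2B had a median of 6.91 CPM, with SK-N-FI lowest at 4.44 CPM and IMR5-75 highest, followed by SK-N-SH at 21.6 CPM. Both are ligands best known for signalling through beta-catenin, and neither was far above the rest in any line.

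WNT5A (chr3:55465715-55490539, minus strand, GRCh38) had 0 counts in SK-N-BE(2)C, a median of 2.20 CPM and a highest level of 111 CPM in SK-N-SH, with 78.3 CPM in GI-ME-N. LS followed at 23.8 CPM, SK-N-AS at 12.5 CPM and IMR5-75 at 12.2 CPM, so SK-N-SH and GI-ME-N stood above all other lines. Its relative WNT5B lay between 0.205 CPM in SK-N-BE(2)C and 34.5 CPM in SK-N-SH, with a median of 2.89 CPM. In bulk RNA, a higher level in each cell and a larger share of cells that carry the transcript cannot be told apart.

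WNT6 was high in other lines: its highest level was 28.5 CPM in Lan-6, then 8.38 CPM in SK-N-BE(2)C, with a median of 0.709 CPM and a lowest level of 0.0310 CPM in GI-ME-N. With the length trend removed these levels of WNT6 were 11.2 CPM (Lan-6) and 8.95 CPM (SK-N-BE(2)C). WNT10A, its neighbour on chromosome 2, reached 2.28 CPM in CLB-GA and 1.27 CPM in SK-N-BE(2)C and stayed below 1 CPM elsewhere. The genes lie 6130 bases apart on the plus strand, and across the 14 lines their log2 CPM values had a Pearson correlation of 0.82 and a Spearman correlation of 0.81. These points come from the same libraries, and the highest line differed between the genes. Both genes had under 10 counts in GI-ME-N, IMR32, LS, SK-N-DZ and SK-N-SH, so the correlations rest partly on levels near 0 counts. The correlation of neighbouring genes over the whole table was not computed. WNT3 and WNT9B, 47 bases apart on chromosome 17 on opposite strands and not overlapping, had a Pearson correlation of 0.25.

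The remaining ligands were low. WNT4 reached 13.9 CPM in Lan-6 and at most 2.13 CPM elsewhere. WNT11 reached 5.65 CPM in SK-N-FI, WNT9A 5.19 CPM in NGP, WNT10B 1.73 CPM in IMR5-75, WNT8B 1.41 CPM in SK-N-DZ and WNT16 1.13 CPM in LS.

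The promoters of WNT6 and WNT10A are shown because these neighbours varied together across the lines, and those of DKK1 and TCF7 because they hold the motif to which TCF and LEF factors bind. Each is 300 bases of RefSeq sequence on GRCh38.p14, from 250 bases before the annotated start to 50 bases after it, read along the gene. The windows are chr2:218859555-218859854 (WNT6), chr2:218880602-218880901 (WNT10A), chr10:52314031-52314330 (DKK1) and chr5:134123368-134123667 (the second of the TCF7 windows), all on the plus strand.
WNT6: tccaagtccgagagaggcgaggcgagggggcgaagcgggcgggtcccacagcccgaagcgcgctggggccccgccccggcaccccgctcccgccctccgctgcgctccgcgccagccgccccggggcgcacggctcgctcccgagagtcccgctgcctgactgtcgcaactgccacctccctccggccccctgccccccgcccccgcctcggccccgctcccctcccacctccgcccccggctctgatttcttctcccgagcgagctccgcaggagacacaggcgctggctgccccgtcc
WNT10A: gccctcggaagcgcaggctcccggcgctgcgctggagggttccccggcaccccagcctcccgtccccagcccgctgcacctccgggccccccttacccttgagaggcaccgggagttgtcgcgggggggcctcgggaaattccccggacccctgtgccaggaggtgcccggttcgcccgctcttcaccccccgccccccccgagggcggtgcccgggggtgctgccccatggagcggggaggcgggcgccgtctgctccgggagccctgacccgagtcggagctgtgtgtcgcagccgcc
DKK1: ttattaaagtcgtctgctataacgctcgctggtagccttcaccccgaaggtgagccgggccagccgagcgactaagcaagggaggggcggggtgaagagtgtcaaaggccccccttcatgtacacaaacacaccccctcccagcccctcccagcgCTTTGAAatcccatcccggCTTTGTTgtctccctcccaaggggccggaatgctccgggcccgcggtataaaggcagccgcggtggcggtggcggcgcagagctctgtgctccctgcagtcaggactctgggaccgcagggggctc
TCF7: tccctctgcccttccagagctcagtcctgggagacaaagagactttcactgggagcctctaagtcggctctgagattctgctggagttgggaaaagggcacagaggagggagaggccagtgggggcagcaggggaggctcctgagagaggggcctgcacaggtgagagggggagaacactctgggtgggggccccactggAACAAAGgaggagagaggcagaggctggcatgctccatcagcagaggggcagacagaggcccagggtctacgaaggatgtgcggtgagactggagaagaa
Capitals mark CTTTGNN on either strand, where each N is A or T. DKK1 held 2 matches, at 95 and 76 bases before the start, and TCF7 held 1 on the opposite strand. The WNT6 and WNT10A windows held no match, with 78.0% and 76.7% G and C bases, against a median of 58.7% over all windows. Of the 36 WNT genes with a window in the RefSeq table, 4 held a match (DKK1, TCF7, TCF7L2 and WNT3), or 11.1%, against 16.4% of 27305 genes. A match describes these letters and is not evidence of binding.

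The Frizzled receptors differed in which member led. Compared as CPM per kilobase of transcript, FZD2 was the most abundant of the 10 in 8 lines, FZD5 in 2, FZD6 in 2, and FZD3 and FZD7 in 1 each. FZD2 made up 71.3% of the summed Frizzled level per kilobase in GI-ME-N, and FZD5 made up 89.0% in Lan-6. In CPM, FZD2 reached 195 CPM in GI-ME-N, then 52.7 CPM in LS, with a median of 16.5 CPM and 0 counts in Lan-6. FZD5 reached 165 CPM in Lan-6 and 54.8 CPM in CLB-GA, with a median of 7.16 CPM and a lowest level of 2.45 CPM in SH-SY5Y. Lan-6 thus had the highest level of FZD5 and the lowest of FZD2.

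FZD6 lay between 4.24 CPM in IMR32 and 159 CPM in SK-N-SH with a median of 18.7 CPM, and GI-ME-N was next at 66.0 CPM. FZD7 reached 161 CPM in SK-N-SH, then 68.6 CPM in SK-N-BE(2)C, had a median of 14.9 CPM and was lowest in SK-N-DZ at 0.321 CPM. SK-N-SH was the highest line for both receptors.

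FZD8 was highest in LS at 21.7 CPM, with a median of 1.58 CPM and a lowest level of 0.0633 CPM in CLB-GA. FZD1 was lowest in LS at 0.634 CPM, had a median of 13.4 CPM and reached 40.5 CPM in GI-ME-N. The 2 receptors thus had LS at opposite ends of their range. FZD4 in LS was 22.1 times its median of 4.52 CPM, and FZD9 at most 3.54 CPM in SK-N-SH.

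FZD3, a receptor known for its part in planar polarity and axon guidance, was high in most lines, with a median of 52.1 CPM and a highest level of 91.2 CPM in NGP. It was lowest in GI-ME-N at 6.17 CPM and Lan-6 at 8.81 CPM, the libraries in which long transcripts were low. With each library's trend over GC content and transcript length removed, these levels were 9.11 CPM for GI-ME-N and 23.0 CPM for Lan-6. The co-receptors LRP5 and LRP6 were both highest in LS, at 195 CPM and 161 CPM. LRP5 had a median of 65.1 CPM and was lowest in SK-N-FI at 16.1 CPM. LRP6 had a median of 70.0 CPM and was lowest in Lan-6 at 20.9 CPM, or 37.9 CPM with the trend removed.

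R-spondins are secreted proteins that bind LGR receptors and hold back ZNRF3 and RNF43, the ubiquitin ligases that remove Frizzled receptors from the cell surface. Each of the 4 R-spondins was found in 1 to 5 lines, and none in all 14. RSPO4 reached 26.9 CPM in NBL-S and 6.48 CPM in NGP, with a median of 0.360 CPM and 0 counts in SK-N-BE(2)C and IMR32. RSPO2 reached 12.6 CPM in LS, then 9.95 CPM in NGP, with a median of 0.0388 CPM and 0 counts in 5 lines. NGP was the line that held both at more than 5 CPM. RSPO1 was above 1 CPM in NBL-S (3.33 CPM) and RSPO3 in GI-ME-N (1.77 CPM), and in no other line.

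LGR4, LGR5 and ZNRF3 reached 1 CPM in all 14 lines, RNF43 in 4 and LGR6 in none. LGR5, an R-spondin receptor known as a stem cell marker in the intestine, reached 205 CPM in SK-N-AS, then 160 CPM in SK-N-BE(2)C, with a median of 21.4 CPM and a lowest level of 3.46 CPM in SK-N-DZ. SK-N-AS and SK-N-BE(2)C stood above all others, the next being NBL-S at 46.5 CPM. LGR4 had a median of 21.9 CPM, and it was lowest in Lan-6 at 1.12 CPM, or 2.00 CPM with the GC and length trend removed.

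ZNRF3 lay between 11.6 CPM in Lan-6 and 54.4 CPM in IMR32, with a median of 30.5 CPM. RNF43, its close relative and a known beta-catenin target, lay between 0.291 CPM in LS and 4.71 CPM in Lan-6, with a median of 0.693 CPM. Lan-6 was thus lowest for ZNRF3 and highest for RNF43.

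Among the secreted inhibitors, SFRP1 and DKK3 were found in every line, and DKK1 and DKK2 varied widely. SFRP1, which binds WNT proteins outside the cell, was lowest in SK-N-FI at 10.5 CPM, had a median of 82.9 CPM and reached 1921 CPM in GI-ME-N, ahead of SK-N-SH (953 CPM) and CLB-GA (637 CPM). SFRP5 reached 5.11 CPM in NGP and SFRP4 1.34 CPM in LS. DKK1, an inhibitor that binds LRP5 and LRP6 and is itself a known beta-catenin target, ran from 0.0886 CPM in IMR5-75 to 189 CPM in SK-N-SH, with a median of 17.4 CPM. CLB-GA at 144 CPM and NBL-S at 128 CPM were also above 100 CPM for DKK1.

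DKK2 had the largest spread of the detected WNT genes, with a standard deviation of 3.79 on the log2 scale. SK-N-SH had 87.6 CPM of it and SK-N-FI 60.1 CPM, with a median of 0.388 CPM and 0 counts in LS. DKK3 (chr11:11963106-12009769, minus strand, GRCh38), a divergent member of the Dickkopf family, was lowest in LS at 6.98 CPM, had a median of 47.3 CPM and reached 1192 CPM in SK-N-SH. The next line was Lan-6 at 146 CPM, so SK-N-SH stood far above the rest.

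AXIN1, a scaffold of the complex that destroys beta-catenin, was steady at 13.8 CPM in IMR5-75 to 66.7 CPM in SK-N-AS, with a median of 38.9 CPM. AXIN2 (chr17:65528563-65561647, minus strand), its inducible relative and a widely used readout of beta-catenin signalling, lay between 0.637 CPM in SK-N-BE(2)C and 24.4 CPM in SH-SY5Y with a median of 13.5 CPM. LS at 2.01 CPM and SK-N-AS at 2.86 CPM were the next lowest.

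The TCF and LEF factors divided the lines by which factor led. TCF7 was lowest in GI-ME-N at 0.527 CPM and highest in Lan-6 at 58.9 CPM, with CLB-GA at 58.4 CPM and a median of 10.7 CPM. With the GC and length trend removed TCF7 was highest in CLB-GA, at 55.1 CPM, with Lan-6 at 39.9 CPM. LEF1 had 0 counts in 6 lines and a median of 0.0392 CPM, and it reached 23.4 CPM in NGP, 14.7 CPM in SK-N-DZ, 4.19 CPM in IMR5-75 and 1.93 CPM in Lan-6. TCF7L2 lay between 3.95 CPM in SH-SY5Y and 127 CPM in LS, with SK-N-FI at 80.9 CPM and a median of 16.4 CPM. TCF7L1, known mainly as a repressor, reached 47.3 CPM in LS and had a median of 2.71 CPM.

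Per kilobase, TCF7L2 was the most abundant of the 4 factors in 7 lines, TCF7 in 5 and LEF1 in 2. TCF7 made up 90.1% of their summed level in CLB-GA, 85.6% in Lan-6 and 85.2% in SH-SY5Y, and LEF1 made up 63.9% in NGP and 43.9% in SK-N-DZ. TCF7L2 made up 79.7% in SK-N-BE(2)C and 74.2% in SK-N-AS. These shares depend on the reference transcript lengths, 1488 bases for LEF1 and 2872 for TCF7. In CPM, SK-N-DZ had more TCF7 (21.4 CPM) than LEF1 (14.7 CPM), so LEF1 led there only per kilobase. Which transcripts of each gene were present was not tested.

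**Figure D2:**
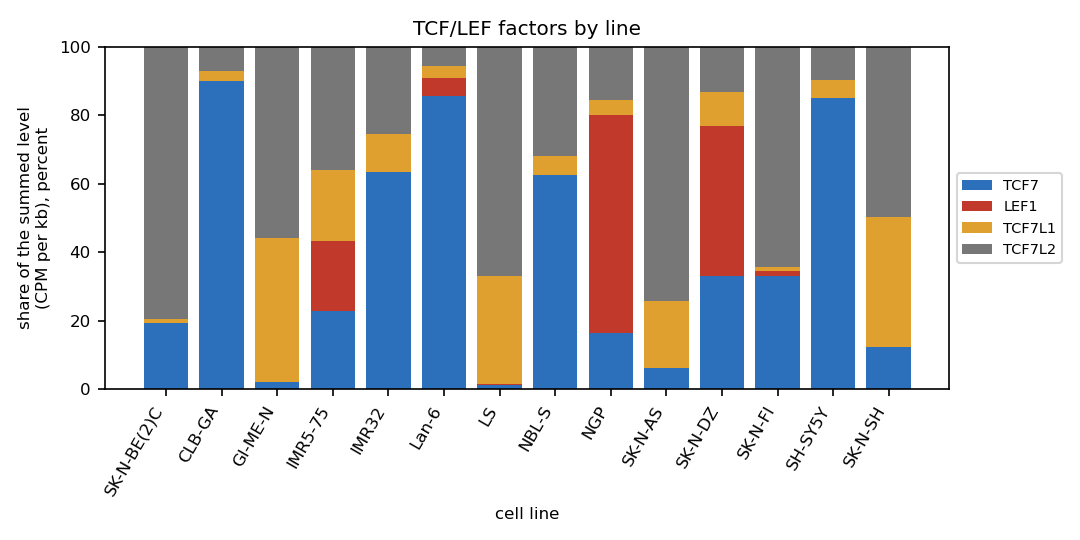
Share of TCF7, LEF1, TCF7L1 and TCF7L2 in their summed level (CPM per kilobase, percent, bars add to the whole) in each line. TCF7 fills 90.1% of the bar of CLB-GA, LEF1 63.9% of that of NGP and TCF7L2 79.7% of that of SK-N-BE(2)C.

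Neuroblastoma lines are known to lie between an adrenergic state, close to the sympathetic lineage, and a mesenchymal state, so the WNT genes were set against a mesenchymal score, the mean centred log2 CPM of 15 markers. Of the 45 WNT genes with enough counts, 3 rose with the score over the 12 lines left without the subclones: the ligand WNT5A, the receptor FZD6 and the secreted DKK3. That is 6.67% of those tested, and over all 18288 genes 3.88% rose (6.5% rose or fell). By the edgeR quasi-likelihood slope test, with Benjamini-Hochberg adjustment over all genes, the log2 CPM of WNT5A changed by 2.41 ± 0.52 per standard deviation of the score (SE, adjusted p = 0.0143, 12 lines). FZD6 changed by 1.05 ± 0.24 (adjusted p = 0.0201) and DKK3 by 1.17 ± 0.30 (adjusted p = 0.0366) in the same test. A standard deviation of the score is 2.77 log2 units.

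No WNT gene fell with the score at the adjusted threshold in edgeR, where 2.62% of all genes did. At an unadjusted p under 0.05, 9 of the 45 had falling and 7 rising slopes, and 22.2% of all genes passed. The DESeq2 Wald test called 6 WNT genes rising and 7 falling, where it called 1173 and 2051 of all genes. By limma on the deposited log2 values 1 rose and 0 fell, and of all genes 565 and 517. WNT6 had a slope of -2.73 ± 0.81 (adjusted p = 0.0631), WNT10A of -1.72 ± 0.56 (adjusted p = 0.0875) and TCF7 of -1.20 ± 0.44 (adjusted p = 0.133) in edgeR. SFRP1 had a slope of 1.26 ± 0.37 (adjusted p = 0.0628), TCF7L1 of 1.58 ± 0.59 (adjusted p = 0.138) and FZD2 of 1.60 ± 0.62 (adjusted p = 0.149). Of the 10 Frizzled receptors 7 had positive slopes and 3 negative ones (FZD3, FZD5 and FZD10). All 3 Dickkopf genes had positive slopes, with DKK2 at 1.47 ± 0.96 and DKK1 at 0.42 ± 0.51. The median slope was 0.06 over the 45 WNT genes and -0.05 over all genes.

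These slopes rest on 2 lines, GI-ME-N with a score of 5.58 and SK-N-SH with 5.49, while the next line, LS, was at 0.83. Without both lines 0 of the 45 were called: WNT5A had a slope of 1.76 (adjusted p = 0.366), FZD6 of 0.02 (adjusted p = 0.993) and DKK3 of -0.56 (adjusted p = 0.657). Without SK-N-SH alone the slope was 2.17 for WNT5A (adjusted p = 0.0646), 0.58 for FZD6 (adjusted p = 0.248) and 0.18 for DKK3 (adjusted p = 0.763). Without GI-ME-N alone FZD6 lost its call (0.94, adjusted p = 0.056). DKK3 lost its call without SK-N-BE(2)C, IMR32, NBL-S, NGP, SK-N-DZ or SK-N-FI, where its slopes were 1.16 to 1.22, with adjusted p from 0.0525 to 0.0656. The same lines held the highest summed level of 8 fibroblast markers, with 15100 CPM in SK-N-SH, 12357 CPM in GI-ME-N, SK-N-AS next at 2490 CPM and IMR32 lowest at 93.9 CPM. All 8 fibroblast markers had positive slopes and 3 rose. Of 6 epithelial markers 3 had positive slopes and 2 rose, with a median slope of 0.0261. Their summed levels were highest in GI-ME-N (1082 CPM), Lan-6 (449 CPM) and SK-N-SH (306 CPM). Single keratins made up most of each sum: KRT18 for GI-ME-N (856 CPM) and SK-N-SH (242 CPM), and KRT19 for Lan-6 (434 CPM). The epithelial markers CDH1 and EPCAM stayed low, with highest levels of 1.28 CPM (IMR5-75) and 5.86 CPM (NGP). The part of these markers in the slopes was not tested.

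**Figure D3:**
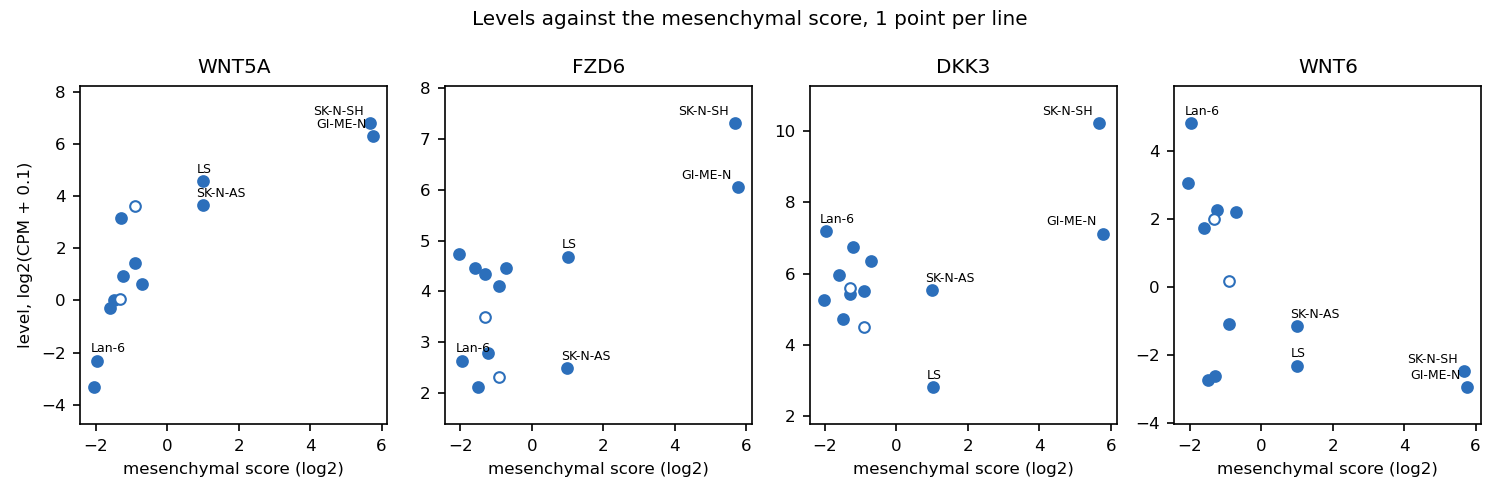
Level of WNT5A, FZD6, DKK3 and WNT6 (log2 of CPM plus 0.1) against the mesenchymal score computed over all 14 lines, 1 point per line. Open points are the subclones IMR5-75 and SH-SY5Y, which did not enter the slope test. GI-ME-N and SK-N-SH lie far to the right, with WNT5A at 78.3 CPM and 111 CPM.

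MYCN, an oncogene whose amplification marks high-risk neuroblastoma, was the next level against which the WNT genes were set. Of the 45 tested, 1 fell as MYCN rose, or 2.22%, where 2.38% of all 18302 genes fell (3.45% fell or rose). It was DKK3, whose levels were, from the line with the highest MYCN to that with the lowest, 38.4 CPM in SK-N-BE(2)C, 26.3 CPM in IMR32, 42.7 CPM in SK-N-DZ, 45.8 CPM in NGP, 6.98 CPM in LS, 62.1 CPM in NBL-S, 81.4 CPM in SK-N-FI, 108 CPM in CLB-GA, 146 CPM in Lan-6, 139 CPM in GI-ME-N, 46.5 CPM in SK-N-AS and last 1192 CPM in SK-N-SH. DKK3 was thus at its lowest in the lines with high MYCN and at its highest in the line with the lowest MYCN. Its slope was -1.56 ± 0.30 log2 CPM per standard deviation of MYCN (edgeR, adjusted p = 0.0279). That standard deviation is 4.69 log2 units.

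None rose with MYCN in edgeR, against 1.07% of all genes. At an unadjusted p under 0.05, 3 WNT genes had rising and 6 falling slopes, and 24.9% of all genes passed. The DESeq2 Wald test called 2 WNT genes rising and 4 falling, where it called 1461 and 1735 of all genes. By limma 0 were called in either direction, and of all genes 173 rose and 142 fell. FZD3 had the lowest adjusted p among the rising ones, with a slope of 0.80 ± 0.23 (adjusted p = 0.0715). LEF1 had a slope of 2.62 ± 1.23 (adjusted p = 0.206) and SFRP5 of 2.48 ± 0.82 (adjusted p = 0.0951). DKK2 had a slope of -3.22 ± 1.37 (adjusted p = 0.169), SFRP1 of -1.44 ± 0.49 (adjusted p = 0.105) and WNT5A of -1.40 ± 0.65 (adjusted p = 0.205).

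The call of DKK3 was lost without GI-ME-N, IMR32, NBL-S, NGP, SK-N-DZ or SK-N-SH, with slopes of -1.64 to -0.78 and adjusted p from 0.0501 to 0.151. Without SK-N-AS, FZD3 passed the threshold (1.09, adjusted p = 0.0149). Without SK-N-FI, DKK2 passed it (-3.21, adjusted p = 0.0437). MYCN and the mesenchymal score share these 12 lines, and the 3 lines lowest in MYCN, SK-N-SH, SK-N-AS and GI-ME-N, include both lines with the highest score.

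**Figure D4:**
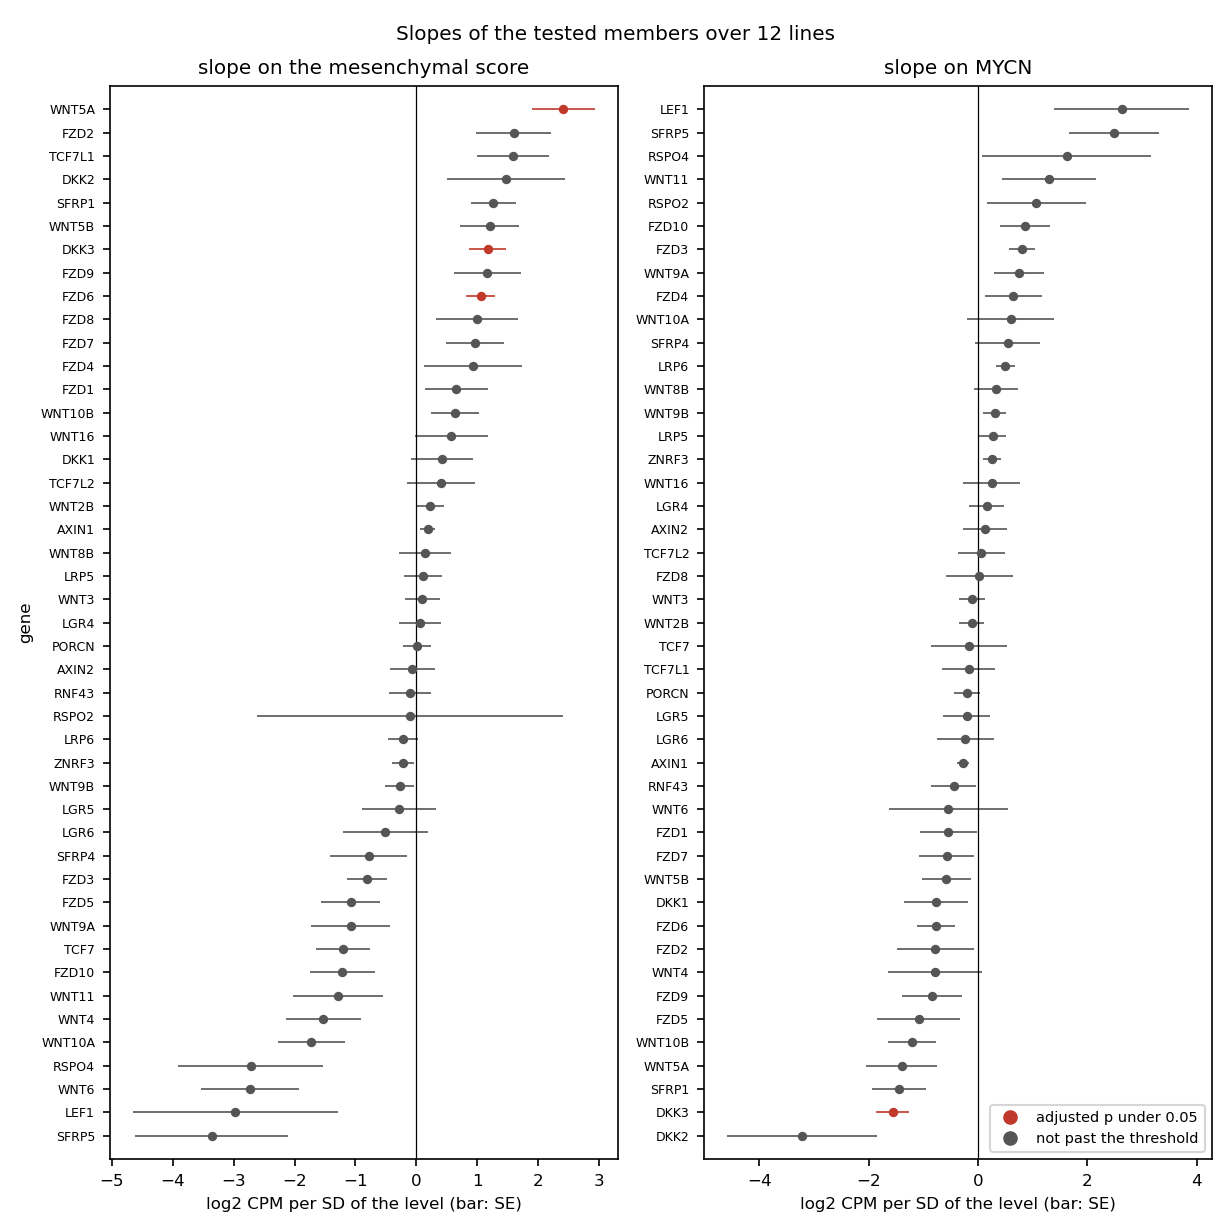
Slope of each tested WNT gene over 12 lines (log2 CPM per standard deviation, bars are the SE) on the mesenchymal score at left and on MYCN at right. Red marks an adjusted p under 0.05: WNT5A, DKK3 and FZD6 at left and DKK3 at right.

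AXIN2 was the last level tested, because beta-catenin is known to induce it. Neither the WNT genes nor any other gene followed it at the adjusted threshold in edgeR: 0 of 18302 genes were called, and 0 by limma. At an unadjusted p under 0.05 there were 651 genes (3.56%), among them 4 of the 44 WNT genes tested. TCF7L2 had a slope of -1.29 ± 0.35 (p = 0.00267 in edgeR) and LGR5 of -1.19 ± 0.36 (p = 0.00611 in edgeR). SFRP5 had a slope of 2.65 ± 0.92 and LEF1 of 3.38 ± 1.43, and all 4 had an adjusted p of 1. The DESeq2 Wald test called 68 genes rising and 47 falling, with RSPO4 among the rising and TCF7L2 among the falling (adjusted p = 0.0155). Other known targets and factors had slopes of 1.06 ± 0.60 for DKK1, 0.36 ± 0.47 for RNF43, -0.09 ± 0.17 for ZNRF3 and 0.64 ± 0.51 for TCF7. Of the 10 tested beta-catenin targets outside the 52 genes, 9 had positive slopes and 0 were called, with a median slope of 0.46, against 0.04 over all genes. Marker lists outside the pathway differed from each other. Of the 15 mesenchymal markers 13 had positive slopes (median 1.42), and of the 15 adrenergic markers 7 (median -0.00455). CD44 is both a target and a mesenchymal marker here. The share of positive slopes over all genes was not counted, and whether the targets stood apart from other genes was not tested.

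A few pathway genes outside the 52 were called on the same levels. On the mesenchymal score 2.62% of all genes fell and 6.5% rose or fell, so 1 call in a short list is not a result about that list. Of 24 genes that act in the beta-catenin pathway inside the cell, 1 fell with the mesenchymal score: APC2, a relative of the tumour suppressor APC, with a slope of -0.98 ± 0.22 (edgeR, adjusted p = 0.0194). Of 13 receptors and planar polarity genes that act without beta-catenin, CELSR2, an atypical cadherin, fell (-0.93 ± 0.22, edgeR, adjusted p = 0.0219). Of 9 tested beta-catenin targets, NKD1, a feedback inhibitor, fell (-2.27 ± 0.62, edgeR, adjusted p = 0.0466).

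NKD1 was lowest in GI-ME-N (0.0620 CPM), then SK-N-SH (0.494 CPM), with a median of 14.7 CPM and a highest level of 51.6 CPM in SK-N-DZ. CELSR2 was lowest in GI-ME-N at 24.2 CPM, with a median of 120.1 CPM. APC2 was low in SK-N-SH (24.3 CPM), GI-ME-N (25.4 CPM) and also SK-N-AS (24.0 CPM), with a median of 95.9 CPM. GI-ME-N and SK-N-SH were thus among the lowest lines for all 3, but not alone. CELSR2 was lower in SK-N-FI (30.6 CPM) and LS (35.50 CPM) than in SK-N-SH (35.54 CPM), and NKD1 was at 0.794 CPM in SK-N-FI. Long transcripts were low in the GI-ME-N library, and levels of these 3 genes with the GC and length trend removed are not given here. On MYCN, 1 of 10 tested beta-catenin targets fell, where 2.38% of all genes did. It was MYC (-3.60 ± 0.46, edgeR, adjusted p = 0.0135), highest in GI-ME-N (150.4 CPM) and lowest in SK-N-DZ (0.0641 CPM). The 4 other genes that act on WNT ligands or their secretion and the 6 tested antagonists outside the set gave 0 calls in 30 edgeR slopes, and 4 slopes had an unadjusted p under 0.05. These were NOTUM, an enzyme that removes the lipid of WNT ligands (-1.37 on the mesenchymal score), KREMEN2 (-0.94 on the same score) and TRABD2B (1.51 on the score and -1.64 on MYCN).

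The subclones were set against their parent lines, as values of single libraries. IMR5-75 had 13 of 44 counted WNT genes at least 2-fold higher than IMR32 (29.5%, against 18.5% of all genes) and 8 at least 2-fold lower (18.2%, against 14.8%). LEF1 had 189 counts in IMR5-75 and 0 in IMR32, at least 45.0-fold higher in IMR5-75 by the exact binomial 95% lower limit (counting error only). RSPO4 had 101 counts in IMR5-75 and 0 in IMR32, at least 23.9-fold higher by the same limit. A TCF and LEF factor and an R-spondin with 0 counts in the parent library were thus counted in the subclone.

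WNT5A was at 12.2 CPM in IMR5-75 and 0.923 CPM in IMR32, 13.2-fold higher (exact binomial 95% interval 9.47 to 19.0, counting error only). FZD4 was at 27.6 CPM in IMR5-75 and 4.34 CPM in IMR32, and TCF7L2 at 18.5 CPM in IMR5-75 and 5.22 CPM in IMR32. TCF7L1 was at 8.33 CPM in IMR5-75 and 1.80 CPM in IMR32. DKK1 went the other way, with 4 counts in IMR5-75 and 304 in IMR32, 85.6-fold higher in IMR32 (33.1 to 316). LGR5 was at 4.92 CPM in IMR5-75 and 18.5 CPM in IMR32, and AXIN1 at 13.8 CPM in IMR5-75 and 34.2 CPM in IMR32. AXIN2 was nearly level, at 19.0 CPM in IMR5-75 and 21.6 CPM in IMR32.

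SH-SY5Y had 9 of 38 counted WNT genes at least 2-fold higher than SK-N-SH (23.7%, against 20.9% of all genes) and 17 at least 2-fold lower (44.7%, against 18% of all genes). The slopes on the mesenchymal score also rest on SK-N-SH, so the pair and those slopes share a library. WNT5A was at 0.941 CPM in SH-SY5Y and 111 CPM in SK-N-SH, a log2 ratio of -6.82. SFRP1 was at 31.5 CPM in SH-SY5Y and 953 CPM in SK-N-SH (log2 ratio -4.92), DKK3 at 48.0 CPM in SH-SY5Y and 1192 CPM in SK-N-SH (-4.63), and FZD6 at 11.2 CPM in SH-SY5Y and 159 CPM in SK-N-SH (-3.82). FZD8 had the next lowest ratio to WNT5A, at 0.252 CPM in SH-SY5Y and 14.7 CPM in SK-N-SH. Ligands, receptors and inhibitors were thus all among the lower genes in SH-SY5Y.

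TCF7 and TCF7L2 took opposite directions: TCF7 was at 26.3 CPM in SH-SY5Y and 6.72 CPM in SK-N-SH, while TCF7L2 was at 3.95 CPM in SH-SY5Y and 36.3 CPM in SK-N-SH. LGR5 was at 40.8 CPM in SH-SY5Y and 4.64 CPM in SK-N-SH, 8.81-fold higher (7.52 to 10.4). RSPO4 had 191 counts in SH-SY5Y and 1 in SK-N-SH, a ratio of 159.7 (28.3 to 6339). WNT6 was at 3.92 CPM in SH-SY5Y and 0.0823 CPM in SK-N-SH, and RNF43 at 1.97 CPM in SH-SY5Y and 0.357 CPM in SK-N-SH. AXIN2 was at 24.4 CPM in SH-SY5Y and 14.9 CPM in SK-N-SH. RSPO4, WNT6 and WNT10A were more than 2-fold higher in the subclone in both pairs, and DKK1 and SFRP1 more than 2-fold lower in both. WNT5A, FZD4, TCF7L1, TCF7L2, LGR4 and DKK2 were more than 2-fold higher in IMR5-75 and more than 2-fold lower in SH-SY5Y than in the parent, and LGR5 and WNT4 were the reverse. Some of these rest on few parent counts: WNT6 had 2 in IMR32 and 3 in SK-N-SH, WNT10A 4 and 1, and DKK2 2 in IMR32. For IMR5-75 over IMR32 the 95% lower limit was 1.92 for WNT10A and 1.91 for DKK2, below 2-fold. The share of all genes that behaved alike or oppositely in both pairs was not counted.

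**Figure D5:**
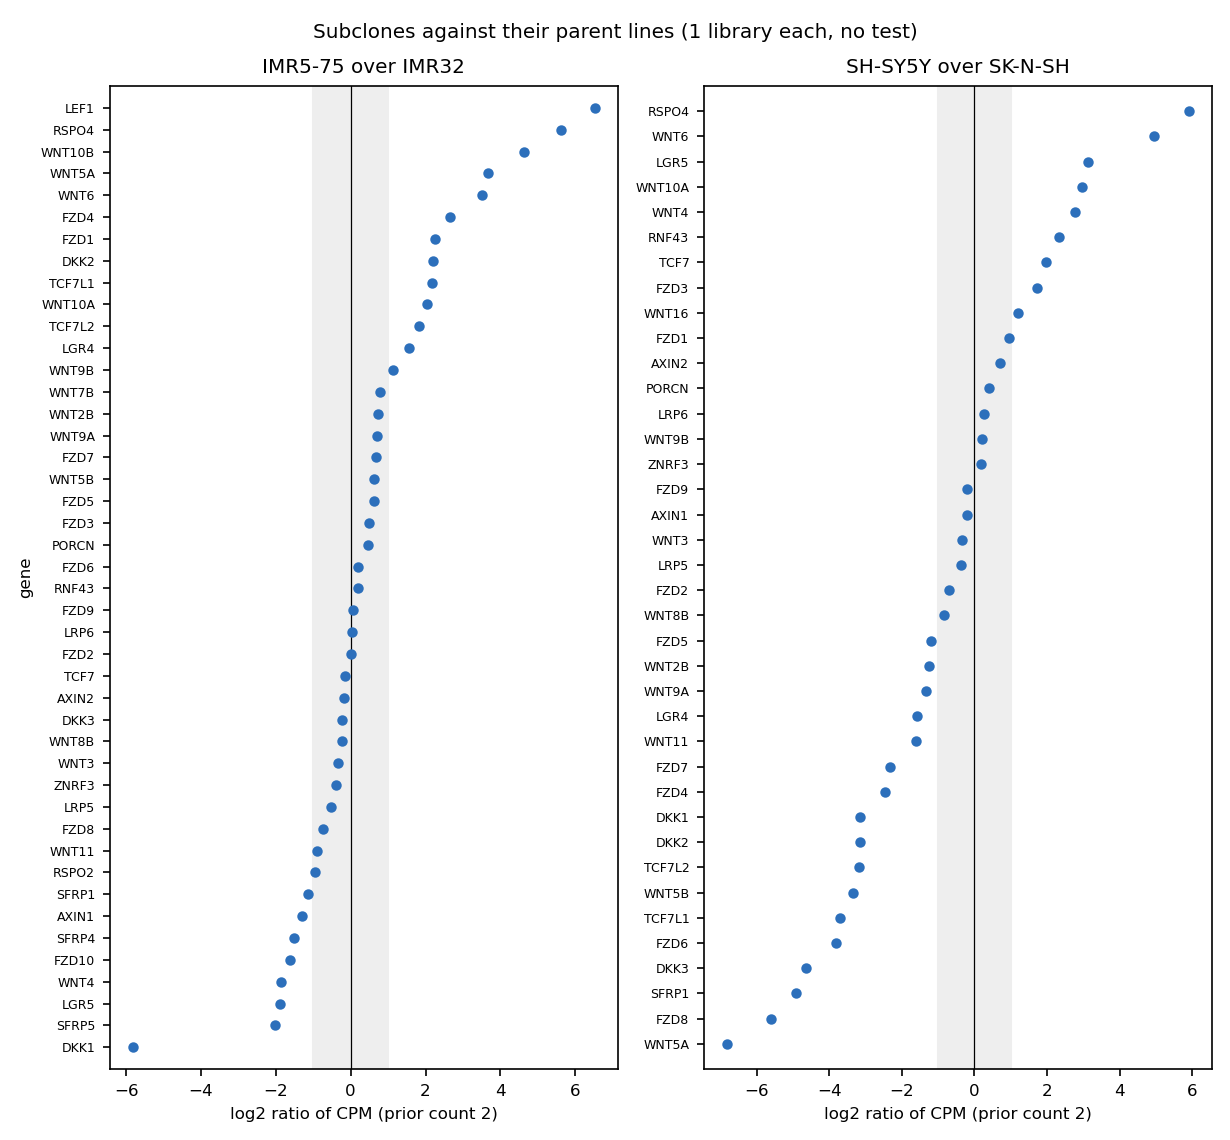
Log2 ratio of CPM of each counted WNT gene in IMR5-75 over IMR32 at left and in SH-SY5Y over SK-N-SH at right, 1 library each. The grey band spans a 2-fold difference either way. WNT5A is at 3.66 at left and at -6.82 at right.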

How the data were processed

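Per the labels' protocols, TRIzol RNA went into TruSeq libraries. Tools named in the submitters' processing notes, without roles, are kallisto 0.44.0 and DESeq2 1.48.2, with the build GRCh38. Annotation, strand setting and filters were not given in the sources used here. As deposited by the authors, the count table was treated as holding expected counts (whole-number estimates per symbol), a unit taken from its values. The deposited log2 values, called variance-stabilised in the table's name, served as an alternative scale.

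CPM used TMM factors over 14 lines (edgeR 4.0.16, R 4.3.3). Depth was 35856642 to 58644013 counts per library, and intervals cover counting error only. CPM per kilobase used the median length of GENCODE 29 basic protein-coding transcripts, to which 99.0% of symbols were matched.

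Slopes were fitted with edgeR's quasi-likelihood test over 12 lines without the subclones, for genes with at least 10 counts in at least 3 lines, on each level in standard deviations. The SE is the slope divided by the root of the F statistic. The threshold was a Benjamini-Hochberg adjusted p of 0.05. Genes that make up a level were left out. The members WNT2, WNT7A, WNT7B, WNT8A, RSPO1, RSPO3 and SFRP2 were too low to test. With 1 library per line, p-values measure the spread between lines, technical differences included. The scripts were tested on simulated counts.

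Genes named in full were those called in any test, the 12 of largest spread among detected genes, and AXIN2, LEF1, TCF7, TCF7L2, LGR5, RNF43 and ZNRF3; others are given by ranges. The members and lists were chosen with earlier results of these data known. Alternatives were DESeq2 size factors and Wald test (1.42.0), limma 3.58.1, no low-count filter, other sets of lines, a GC and length trend removed per library (mgcv 1.9.3), another score, and other prior counts and detection levels. Protein sequences were not used here.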

Additional observations from a re-analysis of the deposited data

How the results depend on the processing

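Over 12 lines, the mesenchymal slopes called 3 WNT genes rising and 0 falling. The DESeq2 Wald test called 6 and 7, limma 1 rising, all 14 lines 1 falling, the mesenchymal minus adrenergic score 3 falling, the subclones in place of their parents 0 rising and 1 falling, and the lines left after dropping SK-N-SH and GI-ME-N 0 rising. Leaving out GI-ME-N and Lan-6, an alternative chosen after seeing the data, called 1 rising. Leaving out single lines gave 0 to 4 rising and 0 to 2 falling. With both dropped the slopes of DKK3 (-0.562), SFRP1 (-0.0733) and FZD3 (0.0417) changed sign. WNT5A was called under 18 of 22 alternatives, FZD6 under 16 and DKK3 under 11. Removing the GC and length trend kept all 3 calls, while without GI-ME-N and Lan-6 WNT5A had an adjusted p of 0.0505 and FZD6 of 0.0664 in edgeR.

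The MYCN slopes called 0 rising and 1 falling. The DESeq2 Wald test called 2 and 4, limma 0 falling, all 14 lines 1 rising, the GC and length trend removed 1 rising, the subclones in place of their parents 0 falling, and the lines without SK-N-SH and SK-N-AS 3 rising and 2 falling. Leaving out single lines gave 0 to 2 rising and 0 to 2 falling. DKK3 was called under 13 of 21 alternatives. On AXIN2 the DESeq2 Wald test called 1 rising and 1 falling, and all other alternatives 0, single lines left out included (0 to 0 in each direction).

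Over all genes, 710 rose and 479 fell with the mesenchymal score. The counts were 1173 and 2051 with the DESeq2 Wald test, 438 and 304 with the subclones in place of their parents, 451 and 150 without GI-ME-N and Lan-6, 25 and 28 without both of SK-N-SH and GI-ME-N, and 341 to 1388 and 121 to 907 without single lines. On MYCN 196 rose and 436 fell in edgeR. The counts were 387 and 894 with all 14 lines, 1461 and 1735 with the DESeq2 Wald test, 173 and 142 with limma, 0 and 0 with the subclones in place of their parents, 28 and 136 without GI-ME-N and Lan-6, 367 and 1072 without SK-N-SH and SK-N-AS, and 0 to 485 and 4 to 1039 without single lines. The DESeq2 Wald test called 68 and 47 on AXIN2. Apart from fewer lines where lines were left out, the cause of these changes was not tested.

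Of the 44 WNT genes at 1 CPM in some line, 42 kept their highest line with the GC and length trend removed and 41 on the deposited log2 values. The counts of WNT genes 2-fold apart between subclone and parent changed by at most 1 gene. Over all genes, IMR5-75 had 3272 higher and 2622 lower than IMR32, and 3480 and 2399 with the GC and length trend removed. The labels give no groups with shared replicate numbers, so no replicate block was fitted, and a fit over both subclone pairs with the pair as a block was not run.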
